A study of Mus musculus with 10 samples.

Results

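The enzymes described here are 10 of mitochondrial fatty acid beta-oxidation. They are the acyl-CoA dehydrogenases Acadvl, Acadl, Acadm and Acads, the trifunctional protein subunits Hadha and Hadhb, the hydratase Echs1, the dehydrogenase Hadh, the thiolase Acaa2 and the isomerase Ech1. Of these, Ech1 is an auxiliary enzyme for unsaturated fatty acids. The 10 were chosen by gene symbol, and all were found, each on 1 row, among the 20692 genes of the deposited count table. All 10 also passed the filter on low counts, which left 12001 genes to test.

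The series measured polyadenylated RNA from FVB/NJ wild-type mouse hearts by sequencing, in 5 hearts after TAC and 5 hearts after sham surgery. TAC (transverse aortic constriction) narrows the aorta, so that the left ventricle pumps against raised pressure. Both groups carried the labels female and 9 weeks of age, and the TAC hearts were taken 1 week after surgery. The sample titles do not contain the word sham, which comes from the series' design statement, and the tissue is labelled whole heart although the protocol describes the ventricular apex. No genotype other than wild type and no agent other than the surgery was given for either group.

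Beta-oxidation shortens an activated fatty acid by repeated cycles of dehydrogenation, hydration, a further dehydrogenation and thiolytic cleavage, and each cycle releases acetyl-CoA for the tricarboxylic acid cycle and electrons for the respiratory chain. Separate enzymes handle chains of different length, and the long-chain steps are joined in the trifunctional protein of the inner membrane. The adult heart draws most of its ATP from this pathway, and the ratio of fatty acid to glucose use is known to shift in the hypertrophied heart.

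The libraries held between 7410967 and 10126574 counts in genes. A pair of libraries stood apart. The library labelled TAC replicate 1 did not match its female label, with 14 counts of Xist against 1042 to 1561 in the other 9 libraries and 155 counts of the Y-linked gene Ddx3y against 0 elsewhere. The library labelled sham replicate 1 was high in several genes that PPAR alpha is known to induce on fasting, though not in all. An example was Pdk4, a kinase that inhibits pyruvate dehydrogenase. It was at 2391 CPM (counts scaled to library size with TMM factors) there, against 230 to 349 CPM in the other 4 sham libraries. The TAC libraries had 86.7 to 499 CPM of Pdk4. Pdk4 was singled out after its values had been seen. Per the submitters' processing notes, the TAC reads were aligned with TopHat 1.3.0 and Bowtie, with the builds mm9 and mm10 listed, and the sham reads with TopHat2 2.0.10, Bowtie2 and mm10, so an effect of the aligner and an effect of TAC cannot be told apart.

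The stretches of DNA in front of these genes are shown because all 10 transcripts moved in the same direction, and because Hadha and Hadhb, which encode the subunits of a single complex, lie head to head. RefSeq promoter windows of 300 bases (250 before and 50 after the annotated start, GRCm38.p6) were available for 9 of the 10 genes. Each window was searched on both strands for AGGTCA, the half-site of nuclear receptors, for AAGGTCA, its extended form bound by estrogen-related receptors, which contains AGGTCA, for GCATGCGC, an NRF1-type core, for the GC box GGGCGG, for CCAAT and for the E-box CACGTG. The motifs were chosen after the sequences had been seen. The sequences below give only bases upstream of the GENCODE start, 5′ to 3′ on the strand of the gene (plus strand for the shared interval), and capitals mark matches to these motifs on either strand. The Acadm stretch is chr3:153944644-153944893 on the minus strand, the Acadvl stretch chr11:70015429-70015678 on the minus strand, the Echs1 stretch chr7:140116477-140116671 on the minus strand, and the interval between Hadha and Hadhb chr5:30155163-30155247.
Acadm: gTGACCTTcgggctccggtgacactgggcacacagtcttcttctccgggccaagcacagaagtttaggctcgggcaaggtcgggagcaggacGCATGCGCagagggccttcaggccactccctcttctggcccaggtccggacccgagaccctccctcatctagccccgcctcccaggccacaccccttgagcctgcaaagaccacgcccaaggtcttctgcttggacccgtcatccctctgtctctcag
Acadvl: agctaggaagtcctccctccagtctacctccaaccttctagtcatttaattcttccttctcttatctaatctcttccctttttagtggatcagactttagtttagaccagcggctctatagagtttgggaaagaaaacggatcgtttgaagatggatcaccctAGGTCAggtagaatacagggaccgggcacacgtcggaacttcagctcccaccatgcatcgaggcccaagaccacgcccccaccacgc
Echs1: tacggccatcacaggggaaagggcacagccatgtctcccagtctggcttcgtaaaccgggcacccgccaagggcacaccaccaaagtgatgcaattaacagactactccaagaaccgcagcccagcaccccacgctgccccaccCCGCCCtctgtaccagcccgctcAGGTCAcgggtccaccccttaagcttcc
Hadha-Hadhb: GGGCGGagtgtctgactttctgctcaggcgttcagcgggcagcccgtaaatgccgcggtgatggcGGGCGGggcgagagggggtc

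AGGTCA lay in the windows of Acadm, Acadvl and Echs1, which is 3 of 9, while 16.3% of all 32851 RefSeq windows of this length held it. AAGGTCA was in the Acadm window alone among the 9 and in 4.72% of all windows. The NRF1-type core was also in the Acadm window alone, against 2.71% of all windows. GGGCGG was in 7 of the 9 windows, all but those of Acadm and Acadvl, and in 35.7% of all windows. CCAAT was in the Hadh window alone and in 37.4% of all windows, and CACGTG was in none of the 9 and in 7.15% of all windows. The starts of Hadha and Hadhb annotated by GENCODE M21, which bound the interval printed above, are separated by 85 bases. The RefSeq starts, on which the searched windows are set, are separated by 272 bases, and these windows overlap by 228 bases, so that they are not independent. These matches describe letters in a window and say nothing of binding.

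All 10 beta-oxidation transcripts fell after TAC. By edgeR's quasi-likelihood test, 10 of 10 were called lower at an adjusted p under 0.05 (Benjamini-Hochberg over all genes tested), where 17.0% of all genes tested were called lower, 18.8% higher and 35.8% in either direction. In 10 of 10 genes every TAC library lay below every sham library, which was so for 11.6% of all genes tested, while 12.2% had every TAC library above every sham library. The median log2 fold change over the 10 genes was -0.59, against 0.00 over all genes tested, and the single values lay between -0.95 for Ech1 and -0.35 for Acadl. In these bulk samples, fewer cells of a type and less RNA per cell cannot be told apart. Together the 10 genes took 0.354%, 0.428%, 0.404%, 0.474% and 0.467% of all counts in TAC replicates 1 to 5, and 0.669%, 0.592%, 0.608%, 0.635% and 0.601% in sham replicates 1 to 5. The mean share was 0.426% ± 0.049 in TAC hearts and 0.621% ± 0.0311 in sham hearts (SD, n = 5 each), a ratio of 0.685. No test was made of this share.

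**Figure D1:**
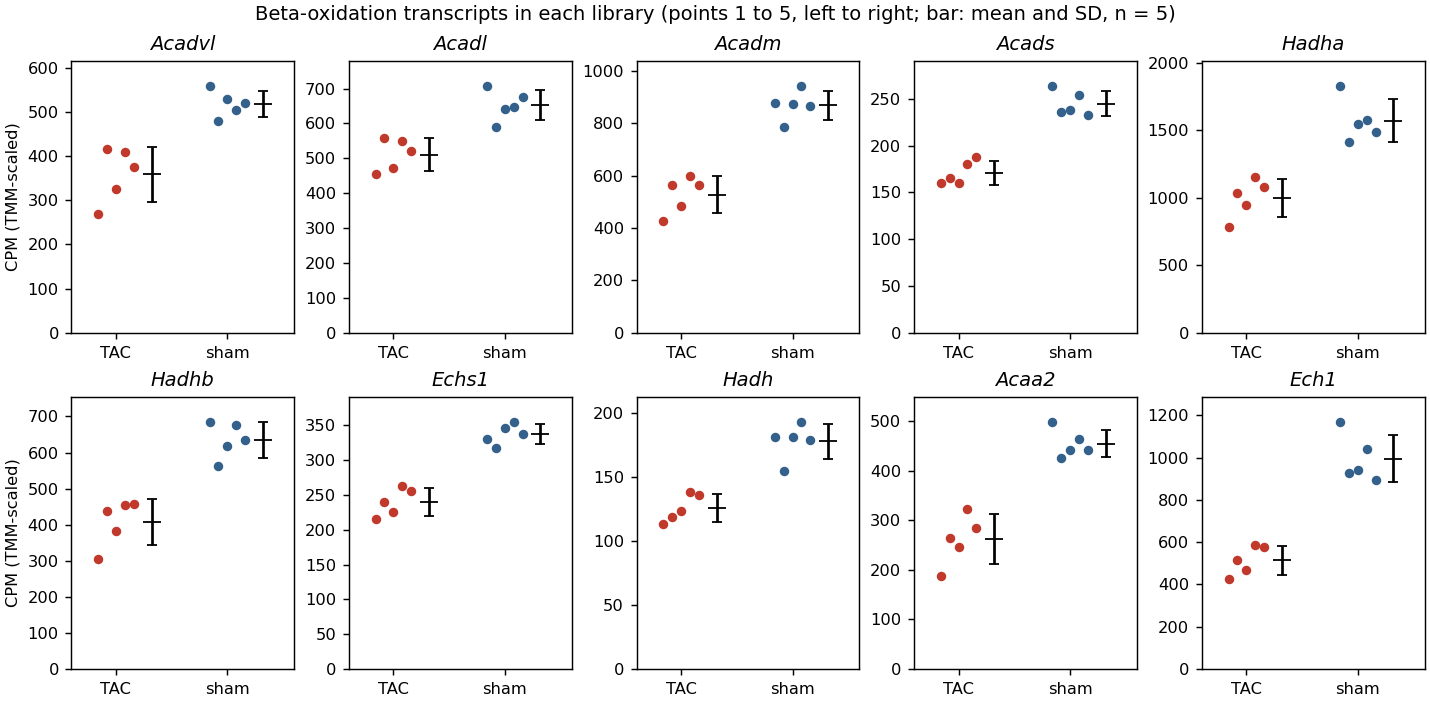
Normalised expression of the 10 beta-oxidation genes in each library, in TMM-scaled CPM (y axes start at 0), with TAC libraries on the left and sham libraries on the right of each panel and bars at the mean ± SD of 5 libraries. In every panel the highest TAC point lies below the lowest sham point, by 17.2 CPM in Hadh and by 309 CPM in Ech1.

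The first step is carried out by acyl-CoA dehydrogenases, which pass electrons to the electron transfer flavoprotein. Acadvl (ENSMUSG00000018574, chr11:70010183-70015411, minus strand, GRCm38), the dehydrogenase of very long chains at the inner membrane, had 268, 416, 326, 409 and 376 CPM in TAC replicates 1 to 5, against 559, 480, 530, 504 and 521 CPM in sham replicates 1 to 5. The TAC values were spread more widely than the sham values but stayed below all of them. Its log2 fold change was -0.53 ± 0.10 (SE, adjusted p = 0.00175 by edgeR). The libraries were not strand-specific, and 1151 of the 2686 bases of Acadvl exon overlap Dvl2 on the other strand, a gene that averaged 102 counts per library. How reads in the shared bases were counted is not known, because the counter settings were not given. This bears on the level of Acadvl per kilobase and on its ratios to other genes. Acadl (ENSMUSG00000026003, chr1:66830839-66863277, minus strand), the long-chain dehydrogenase, had 455, 559, 471, 550 and 520 CPM in TAC replicates 1 to 5, against 708, 591, 641, 648 and 676 CPM in sham replicates 1 to 5. This was the smallest change of the 10 genes, at -0.35 ± 0.07 on the log2 scale (adjusted p = 0.00213 by edgeR), and the gap between its groups was 32.5 CPM.

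Acadm (ENSMUSG00000062908, chr3:153922357-153944632, minus strand), the medium-chain dehydrogenase whose promoter holds the AAGGTCA match above, had 428, 563, 485, 600 and 564 CPM in TAC replicates 1 to 5, against 876, 786, 875, 943 and 864 CPM in sham replicates 1 to 5. The groups were 187 CPM apart at their nearest, and the 95% interval of the log2 fold change ran from -0.91 to -0.53. Acads (ENSMUSG00000029545, chr5:115110299-115119346, minus strand), which acts on short chains, had 160, 165, 160, 180 and 188 CPM in TAC replicates 1 to 5, against 264, 236, 238, 254 and 233 CPM in sham replicates 1 to 5. Its libraries were close to each other within each group, at 171 ± 13 CPM in TAC hearts and 245 ± 13.6 CPM in sham hearts (SD, n = 5 each), and the log2 fold change was -0.52 ± 0.06 (adjusted p = 8.24e-05 by edgeR). Among the 4 dehydrogenases the fitted change was largest in Acadm and smallest in Acadl.

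The middle and last steps for long chains belong to the trifunctional protein. Hadha (ENSMUSG00000025745, chr5:30118304-30155162, minus strand), its hydratase and hydroxyacyl-CoA dehydrogenase subunit, was the most abundant of the 10 in CPM, at rank 82 of all genes tested by level. It had 780, 1032, 949, 1152 and 1077 CPM in TAC replicates 1 to 5, against 1828, 1412, 1548, 1572 and 1487 CPM in sham replicates 1 to 5. The lowest TAC value and the highest sham value came from the 2 libraries that stood apart, TAC replicate 1 and sham replicate 1. The log2 fold change was -0.65 ± 0.10 (adjusted p = 3.66e-04 by edgeR), and -0.52 without those 2 libraries. Hadhb (ENSMUSG00000059447, chr5:30155248-30184593, plus strand), the thiolase subunit transcribed from the other side of the interval shown above, had 305, 437, 383, 455 and 457 CPM in TAC replicates 1 to 5, against 685, 563, 617, 675 and 636 CPM in sham replicates 1 to 5. Hadha shares 75 bases of exon with Garem2 on the other strand, which averaged 7.3 counts per library. The log2 fold change of Hadhb, -0.64 ± 0.10 (adjusted p = 4.67e-04 by edgeR), was next to that of Hadha, and it too was -0.52 without the 2 libraries.

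Chains of medium and short length are hydrated, oxidised and cleaved by separate matrix enzymes. Echs1 (ENSMUSG00000025465, chr7:140105710-140116476, minus strand), the short-chain enoyl-CoA hydratase, had 215, 240, 225, 263 and 256 CPM in TAC replicates 1 to 5, against 331, 317, 346, 355 and 337 CPM in sham replicates 1 to 5. The TAC libraries averaged 240 ± 20.2 CPM and the sham libraries 337 ± 14.4 CPM (SD, n = 5 each), without overlap. Hadh (ENSMUSG00000027984, chr3:131233419-131272101, minus strand), the matrix hydroxyacyl-CoA dehydrogenase, was the least abundant of the 10, with 113, 119, 123, 138 and 136 CPM in TAC replicates 1 to 5, against 181, 155, 181, 193 and 179 CPM in sham replicates 1 to 5. Its lowest library held 877 counts, and Echs1 shares 142 bases of exon with Paox on the other strand, which averaged 26.6 counts per library. The log2 fold changes were -0.49 ± 0.06 for Echs1 and -0.50 ± 0.07 for Hadh (adjusted p = 1.28e-04 and 2.62e-04 by edgeR). Acaa2 (ENSMUSG00000036880, chromosome 18), the matrix thiolase that releases acetyl-CoA, had 188, 265, 247, 324 and 285 CPM in TAC replicates 1 to 5, against 499, 426, 443, 465 and 443 CPM in sham replicates 1 to 5. It varied most among TAC libraries, with a coefficient of variation of 19.2%, and its change on the log2 scale was -0.80 ± 0.11 (edgeR, adjusted p = 2.26e-04).

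Ech1 (ENSMUSG00000053898, chr7:28825217-28832247, plus strand), the dienoyl-CoA isomerase that prepares unsaturated fatty acids for the spiral and is found in mitochondria and peroxisomes, fell most. It had 424, 516, 470, 586 and 576 CPM in TAC replicates 1 to 5, against 1169, 927, 941, 1039 and 895 CPM in sham replicates 1 to 5. The TAC mean was 0.518 of the sham mean by the fitted fold change, that is -0.95 ± 0.10 on the log2 scale (95% interval -1.16 to -0.74, adjusted p = 4.33e-05 by edgeR). By the size of its fall it stood at rank 65 of 12001 genes, Acaa2 at rank 144, Acadm at rank 209 and Acadl at rank 1251. Without TAC replicate 1 and sham replicate 1 all 10 genes were called lower, with log2 fold changes from -0.82 for Ech1 to -0.28 for Acadl and a median of -0.49, where 14.6% of all genes tested were called lower.

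**Figure D2:**
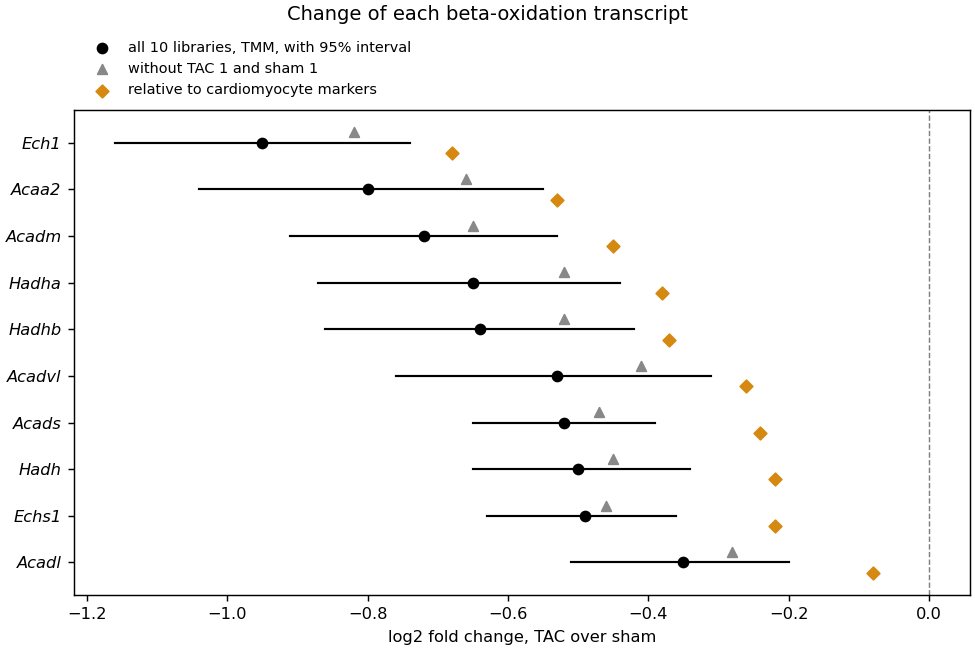
Log2 fold change, TAC over sham, of each beta-oxidation gene. Black points with 95% intervals are from all 10 libraries, grey triangles are without TAC replicate 1 and sham replicate 1, and orange diamonds are relative to cardiomyocyte marker transcripts; all intervals lie below 0, and the diamond of Acadl, at -0.08, is nearest to 0.

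The order of the levels was read per kilobase, since longer transcripts give more fragments. Over the union of annotated exons, Acadl stood first in TAC hearts at 255 ± 23 CPM per kilobase, above Ech1 at 225 ± 30.2 in 5 of 5 libraries, whereas in sham hearts Ech1 at 435 ± 48.8 stood above Acadl at 326 ± 21.7 in 5 of 5 libraries (SD, n = 5). With the length of the principal transcript instead, a choice made after seeing the data because the union counts retained introns, Ech1 stood first in both groups, at 406 ± 54.4 CPM per kilobase in TAC hearts and 784 ± 88 in sham hearts. On that scale Acadl, Acadm and Hadha followed in TAC hearts at 267, 258 and 248 CPM per kilobase, with overlapping ranges, and in sham hearts they stood at 341, 425 and 391. Acadl was thus above Acadm in 3 of 5 TAC libraries. Hadhb, Acaa2, Acadvl and Echs1 came next in both groups, at 199, 173, 166 and 154 CPM per kilobase in TAC hearts and 310, 300, 239 and 217 in sham hearts, with overlapping ranges of neighbours except between Acaa2 and Acadvl in sham hearts. Acads, at 91.3 in TAC hearts and 131 in sham hearts, and Hadh, at 70.4 in TAC hearts and 99.4 in sham hearts, closed the order in both groups, apart from each other and from the rest.

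Whether members of the pathway changed by unequal amounts was tested on count ratios within each library, which need no scaling between libraries. 8 pairs were compared by exact two-sided permutation tests, whose smallest possible p with 5 against 5 libraries is 0.00794, with Benjamini-Hochberg adjustment over the 8. The pairs were chosen with earlier results of these data known. The adjustment does not cover that choice, so the p-values describe the chosen pairs only. The proportion of the 2 trifunctional subunits did not differ beyond the spread between libraries. Hadha over Hadhb was 2.56, 2.36, 2.47, 2.53 and 2.36 in TAC replicates 1 to 5, against 2.67, 2.51, 2.51, 2.33 and 2.34 in sham replicates 1 to 5, and the mean log2 ratio was 1.30 ± 0.06 in TAC hearts and 1.30 ± 0.08 in sham hearts (SD, n = 5 each, exact permutation adjusted p = 0.929). The TAC range lay inside the sham range.

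Ech1 fell relative to Echs1. Their ratio was 1.98, 2.15, 2.09, 2.23 and 2.25 in TAC replicates 1 to 5, against 3.53, 2.92, 2.72, 2.93 and 2.65 in sham replicates 1 to 5, with no overlap, a mean log2 difference of -0.46 and an exact permutation adjusted p of 0.0212. Acadl was higher relative to Acadvl after TAC, with ratios of 1.7, 1.34, 1.45, 1.34 and 1.38 in TAC replicates 1 to 5, against 1.27, 1.23, 1.21, 1.28 and 1.3 in sham replicates 1 to 5. These groups did not overlap either, and the mean log2 difference was 0.19 (exact permutation adjusted p = 0.0212). Acadm fell relative to Acadvl by a mean log2 difference of -0.18 (exact permutation adjusted p = 0.0317), with ratios of 1.35 to 1.6 in TAC hearts and 1.57 to 1.87 in sham hearts. These ranges overlapped only through TAC replicate 1, at 1.6, and sham replicate 1, at 1.57. Acaa2 fell relative to Hadhb by -0.16 (exact permutation adjusted p = 0.0381), with ratios of 0.608 to 0.713 in TAC hearts and 0.688 to 0.756 in sham hearts. The call for Acadm over Acadvl was lost on leaving out 8 of the 10 libraries in turn, with adjusted p from 0.0508 to 0.0635, and that for Acaa2 over Hadhb in 9 of 10, from 0.0508 to 0.0762.

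Echs1 over Hadha differed by an amount that depended on the 2 libraries that stood apart. It was 0.275, 0.232, 0.237, 0.228 and 0.238 in TAC replicates 1 to 5, against 0.181, 0.225, 0.224, 0.226 and 0.227 in sham replicates 1 to 5, and the mean log2 difference was 0.16 (exact permutation adjusted p = 0.0212). The call was kept on leaving out each library in turn. Without both TAC replicate 1 and sham replicate 1 the difference was 0.05. The remaining ratios, 0.228 to 0.238 in TAC hearts and 0.224 to 0.227 in sham hearts, still did not overlap. No pair was called with 4 libraries a group. Acads over Acadm differed by 0.21, with ratios of 0.293 to 0.373 in TAC hearts and 0.269 to 0.302 in sham hearts, and did not pass (exact permutation adjusted p = 0.0529). Hadh over Hadha differed by 0.16, with ratios of 0.115 to 0.145 in TAC hearts and 0.099 to 0.123 in sham hearts, and did not pass either (exact permutation adjusted p = 0.0907).

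**Figure D3:**
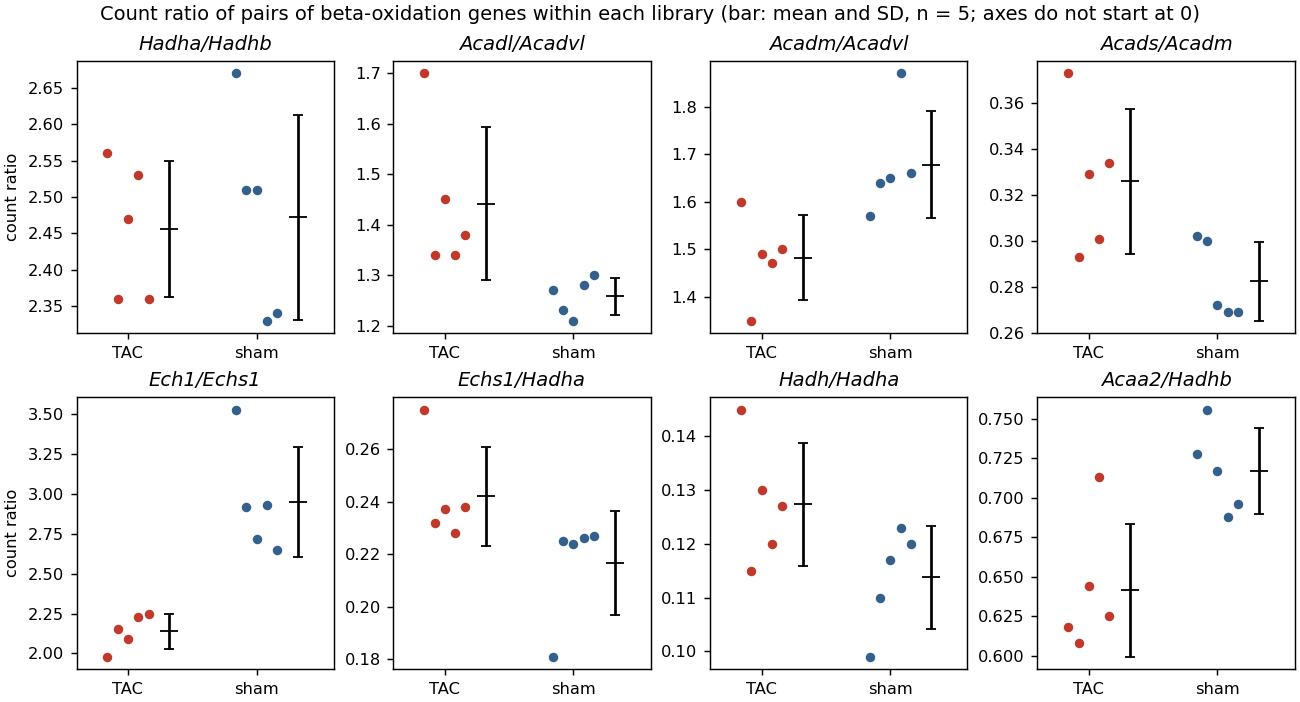
Count ratio of 8 pairs of beta-oxidation genes within each library (y axes do not start at 0), TAC libraries left and sham libraries right, with bars at the mean ± SD of 5 libraries. Ech1/Echs1 and Acadl/Acadvl separate the groups without overlap, Echs1/Hadha does so by a narrow gap with TAC replicate 1 at 0.275 and sham replicate 1 at 0.181, and Hadha/Hadhb overlaps.

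Library by library, the enzymes differed in the size of their change. Relative to the sham mean, the mean log2 level of the 10 genes was -0.90, -0.56, -0.71, -0.44 and -0.50 in TAC replicates 1 to 5, and 0.11, -0.12, -0.01, 0.05 and -0.03 in sham replicates 1 to 5. TAC replicate 1 was lowest, and sham replicate 1 was highest. Acadl was the least lowered of the 10 in each of the 5 TAC libraries, by -0.52, -0.22, -0.47, -0.24 and -0.33. Ech1 was the most lowered in TAC replicates 2 to 5, and Acaa2, at -1.27, in TAC replicate 1. Markers of other cell types also differed between TAC libraries. The mean log2 level of the fibroblast markers relative to sham was 1.77 in TAC replicate 1 and 1.00 to 1.15 in the other TAC libraries, and that of the macrophage markers was 1.41 in TAC replicate 1 and 0.56 to 0.73 in the others.

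**Figure D4:**
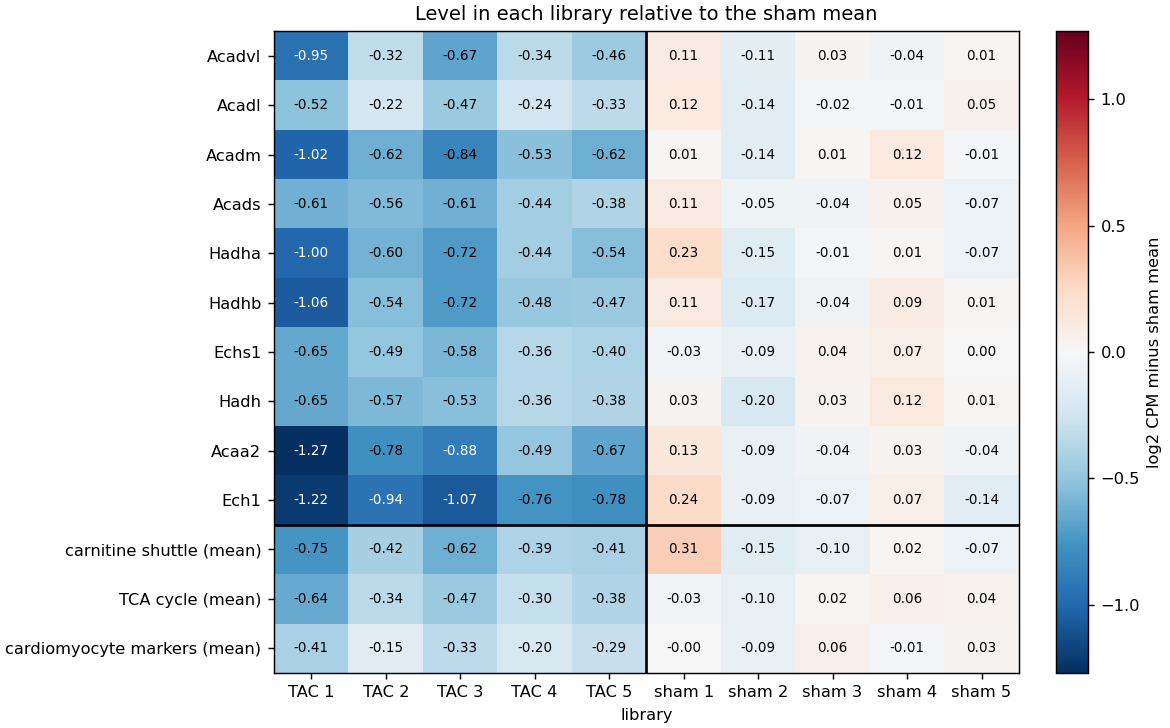
Log2 level of each beta-oxidation gene in each library minus its sham mean (colour and printed value), TAC libraries left of the line and sham libraries right, with the means of 3 other gene lists in the lower rows. All TAC cells of the 10 genes are negative, from -1.27 for Acaa2 in TAC replicate 1 to -0.22 for Acadl in TAC replicate 2.

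Cardiomyocytes hold most of the mitochondria of the heart, so the 10 genes were set beside markers of the cell types that the tissue can hold. Of all genes tested, 17.0% were called lower and 18.8% higher. Of 16 ventricular cardiomyocyte markers 10 fell and 6 were not called (median log2 fold change -0.32), with Pln, the inhibitor of the calcium pump, and the troponins Tnnt2 and Tnni3 at -0.59, -0.47 and -0.60 (edgeR). The markers' summed level was 94722 to 120941 CPM in TAC hearts and 123780 to 145455 CPM in sham hearts, and none of the 16 was at 0 in any group. Of 9 fibroblast markers 7 rose, with sums of 3009 to 8680 CPM in TAC hearts and 948 to 1426 CPM in sham hearts, and the highest sum apart from TAC replicate 1 was 3604 CPM. Most of each sum came from collagen transcripts, and fibroblast number was not measured. The log2 fold changes of the 9 ran from 0.10 to 3.11, with a median of 0.96, and 2 were not called. The 3 fibroblast markers with the smallest adjusted p by edgeR were the matrix genes Postn, Col1a2 and Col3a1, at log2 fold changes of 3.11, 2.09 and 2.12. Of 8 macrophage markers 7 rose, with sums of 253 to 418 CPM in TAC hearts and 159 to 190 CPM in sham hearts, and the highest sum apart from TAC replicate 1 was 274 CPM. Among them were Mrc1, C1qa and C1qb at 0.77, 0.70 and 0.75. The part of these cell types in the fall of the 10 genes was not tested.

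Of 8 endothelial markers 2 rose (Cdh5 and Pecam1, at 0.54 and 0.28). Of 7 smooth muscle and pericyte markers 2 rose (Cspg4 and Pdgfrb, at 0.63 and 0.26). The remaining markers of both lists were not called, where 18.8% of all genes tested were called higher. Endothelial sums were 1266 to 1553 CPM in TAC hearts and 1128 to 1360 CPM in sham hearts, and smooth muscle sums 1116 to 1263 CPM in TAC hearts and 1047 to 1378 CPM in sham hearts. Of 5 atrial markers 2 were tested, of which Nppa, a gene that stressed ventricle is also known to express, rose by 2.48 and Myl4, named after its value was seen, was not called at -0.15 (adjusted p = 0.675 by edgeR). Atrial sums were 511 to 1242 CPM in TAC hearts and 96.6 to 192 CPM in sham hearts, with 677 CPM the highest TAC sum apart from TAC replicate 1. Nearly all of the atrial sums was Nppa, at 507 to 1239 CPM in TAC hearts and 93.8 to 190 CPM in sham hearts. The 2 tested adipocyte markers and the 3 tested erythroid markers did not pass. Adipocyte sums were 2.31 to 19.9 CPM in TAC hearts and 4.51 to 11.8 CPM in sham hearts, and erythroid sums 593 to 1230 CPM in TAC hearts and 159 to 957 CPM in sham hearts. The 7 lymphocyte and neutrophil markers summed to 1.62 to 3.55 CPM in TAC hearts and 1.94 to 6.07 CPM in sham hearts, none passed the filter, and Ly6g was at 0 in every library.

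Scaled to the cardiomyocyte markers in place of all genes, 9 of the 10 beta-oxidation genes were still called lower, where 3.49% of all genes tested were called lower, 49.3% were called higher and the median of all genes moved to 0.28. The median of the 10 genes was -0.32 on that scale. The markers did not move together, and of the 16 themselves 3 were called lower and 5 higher there. Pln and Tnni3 stood at -0.32 and Tnnt2 at -0.19, so the scale does not set the enzymes apart from every cardiomyocyte gene. Ech1 stood at -0.68 (adjusted p = 5.93e-05 by edgeR), Acaa2 at -0.53 (adjusted p = 5.28e-04) and Acadm at -0.45 (adjusted p = 1.57e-04). Hadha and Hadhb stood at -0.38 and -0.37, and Acadvl, Acads, Hadh and Echs1 between -0.26 and -0.22. Acadl, at -0.08, was not called (adjusted p = 0.255). As a share of the cardiomyocyte marker counts, the 10 genes amounted to 3.71% ± 0.183 in TAC hearts and 4.77% ± 0.38 in sham hearts (SD, n = 5 each), with ranges of 3.52 to 3.95% in TAC hearts and 4.37 to 5.31% in sham hearts that did not overlap.

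Most genes before and after the spiral also fell, where 17.0% of all genes tested were called lower. Of 10 genes of fatty acid uptake, activation and the carnitine shuttle, 9 fell, with a median log2 fold change of -0.53, and Cpt1a, the carnitine palmitoyltransferase of liver, was not called at -0.24 (adjusted p = 0.0673 by edgeR). Crat, the carnitine acetyltransferase, was at -0.59, the fatty acid-binding protein Fabp3 at -0.43, and the transporter Slc27a1 at -0.88. All 3 genes that take electrons from the dehydrogenases fell, with Etfb and Etfa, the subunits of the electron transfer flavoprotein, at -0.61 and -0.53 and its ubiquinone oxidoreductase Etfdh at -0.61. All 8 genes listed as auxiliary enzymes of unsaturated and odd-chain fatty acids fell (median -0.53), among them Mcee and Pccb at -0.60 and -0.46. Hsd17b10, a dehydrogenase of isoleucine breakdown that was put on this list, was at -0.51. All 18 genes of the tricarboxylic acid cycle fell as well, but their median was -0.41 and their range -0.68 to -0.32, with Idh2, Sdhc and Sdhb at -0.68, -0.42 and -0.41. Relative to the cardiomyocyte markers, 6 of these 18 were called lower, where 3.49% of all genes tested were. So were 6 of the 10 uptake and shuttle genes, 3 of the 3 electron transfer genes and 8 of the 8 genes listed as auxiliary.

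Relatives of the beta-oxidation enzymes serve other substrates or another organelle. The share of all genes tested that were called lower was 17.0%, and 3.49% relative to the cardiomyocyte markers. Of 7 other acyl-CoA dehydrogenases 4 fell and 3 were not called (median -0.44), with Ivd and Gcdh, of leucine and lysine breakdown, at -0.70 and -0.72 and Acadsb, of isoleucine breakdown, at -0.44. Relative to the cardiomyocyte markers 3 of the 7 were called lower, and Acadsb, at -0.16, was not (adjusted p = 0.0655 by edgeR). Of 15 tested genes of peroxisomal beta-oxidation 6 fell and 9 were not called (median -0.26), among them the transporter Abcd3 at -0.55 and the thiolase Scp2 at -0.30. Relative to the cardiomyocyte markers 2 of the 15 were called lower, and Scp2 was not. No difference between the 10 enzymes and these lists was tested. Of 4 tested mitochondrial thioesterases 3 fell, Acot13 and Them4 at -0.40 and -0.61 and Acot2 to 34.3 ± 8.58 CPM in TAC hearts, against 68.2 ± 44.6 CPM in sham hearts (SD, n = 5 each). The log2 fold change of Acot2 was -0.50 without sham replicate 1, and its call ended in 5 alternatives, among them without TAC replicate 1 (adjusted p = 0.0584 by edgeR), without TAC replicate 3 (0.0596), with robust dispersion (0.0849) and with the replicate block (0.0794). Relative to the cardiomyocyte markers the calls of all 3 ended, and 1 of the 4 genes was called higher, where 49.3% of all genes were.

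Among 16 transcriptional regulators of fatty acid oxidation 9 fell and 7 were not called (median -0.34). For these lists too, 17.0% of all genes tested were called lower and 18.8% higher. Relative to the cardiomyocyte markers 3.49% were called lower. Rxrg, a retinoid X receptor that partners PPARs, was at -0.71 (adjusted p = 5.25e-05 by edgeR), and Esrra and Esrrb, estrogen-related receptors, were at -0.43 and -0.49. Relative to the cardiomyocyte markers 4 of the 16 were called lower and 4 higher, where 49.3% of all genes were called higher, and Esrra and Esrrb were not called. Of 10 genes that set malonyl-CoA, acetylation or protein quality in mitochondria 6 fell, with Acacb, which makes malonyl-CoA at the outer membrane, at -0.59, the deacetylase Sirt3 at -0.36 and the protease Clpp at -0.35. Relative to the cardiomyocyte markers 2 of these 10 were called lower and 3 higher, and Sirt3 and Clpp, at -0.08 and -0.07, were not called (adjusted p = 0.323 and 0.44 by edgeR). Kat2a, an acetyltransferase, rose by 0.17 (adjusted p = 0.0341 by edgeR), a call that ended in 9 of the alternatives tried, among them leaving out sham replicate 1 (adjusted p = 0.0623). Of 10 fasting-type PPAR targets 5 fell and 5 were not called, with Lpl and Vldlr, of triglyceride uptake, at -0.51 and -0.41. Relative to the cardiomyocyte markers 4 of these 10 were called lower and 1 higher, and Vldlr, at -0.13, was not called (adjusted p = 0.235 by edgeR). Without TAC replicate 1 and sham replicate 1, 5 of the list were called lower and 2 higher, where 14.6% of all genes were called lower and 16.3% higher.

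**Figure D5:**
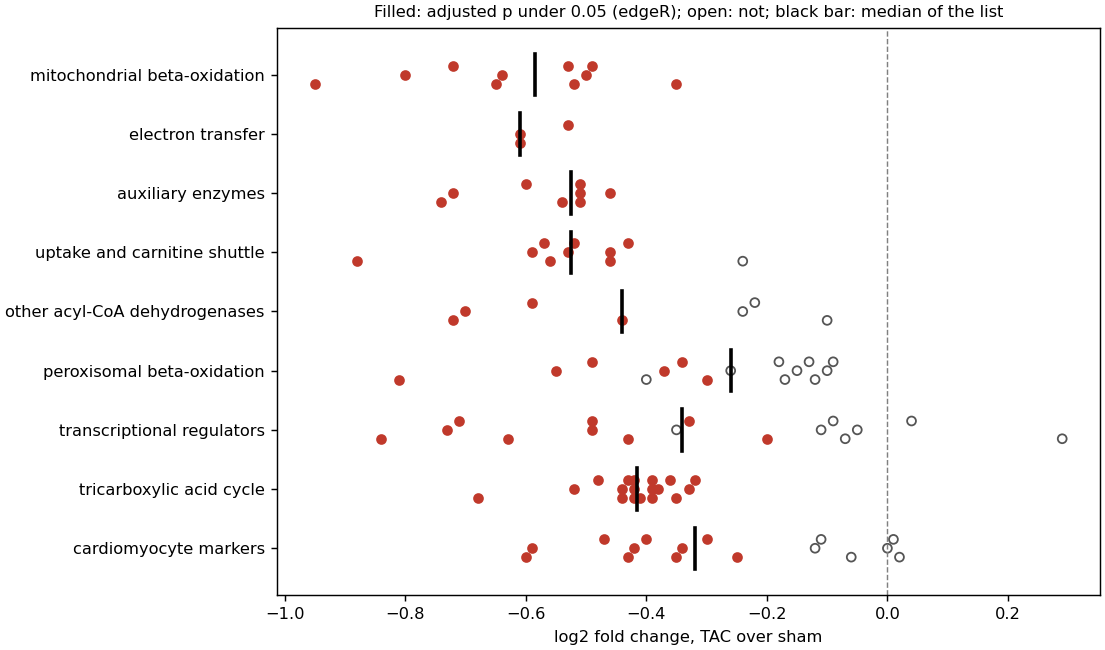
Log2 fold change, TAC over sham, of the tested genes of 9 lists, with filled points for an adjusted p under 0.05 by edgeR, open points for the rest and a black bar at each list's median. The medians run from -0.61 for electron transfer to -0.26 for peroxisomal beta-oxidation, and every gene of mitochondrial beta-oxidation, electron transfer, the auxiliary enzymes and the tricarboxylic acid cycle is filled and below 0.

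The mean profile of the 10 enzymes over the 10 libraries was compared with 4407 other genes whose log2 CPM averaged 5 or more. These included other genes of fatty acid use. The 6 nearest were Crat, Pcnt, Etfb, Agtpbp1, Kcnj11 and Idh2. Their root mean square differences from that profile were 0.056, 0.058, 0.059, 0.060, 0.061 and 0.061 on the log2 scale. The enzymes themselves lay between 0.054 for Hadha and 0.178 for Ech1, with Hadhb at 0.057 and Acadl at 0.149. Each enzyme is part of the mean it was compared with, so its difference is not on a par with those of the other genes. Among the 10, Hadha and Hadhb were thus nearest to the common profile, and Ech1 and Acadl, with the largest and the smallest fall, farthest from it.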

How the data were processed

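Polyadenylated RNA from 5 TAC and 5 sham mouse hearts was sequenced from single-end, non-strand-specific libraries, per the labels' protocols. The authors deposited 1 table of raw counts for all 10 libraries, with a row for each Ensembl gene, and its header names mm9. Per the submitters' processing notes, counting used HTSeq for both groups, and alignment used TopHat 1.3.0 with Bowtie for TAC and TopHat2 2.0.10 with Bowtie2 for sham; the annotation release and counter settings were not given in the sources used here. A row of totals was left out. Depth was 7410967 to 10126574 counts, and the lowest count of any beta-oxidation gene in a library was 877.

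The deposited counts were fitted with edgeR 4.0.16 (R 4.3.3, limma 3.58.1): filterByExpr with a minimum count of 10 and minimum total of 15, which left 12001 genes and dropped 8691, then TMM scaling, a quasi-likelihood fit on group, and Benjamini-Hochberg adjustment over all genes tested, called at 0.05. CPM are TMM-scaled; log2 CPM used a prior count of 2. Count ratios of gene pairs were tested by exact permutation. Alternatives were RLE, upper-quartile and no scaling, scaling to cardiomyocyte markers, other filters, DESeq2 1.42.0, limma-voom, robust dispersion, the replicate number as a block, and leaving out libraries. The scripts were tested on simulated data. Locations come from GENCODE M21, whose IDs matched 94.6% of the table, and promoters from RefSeq.

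Chi-square values per gene between the 20 pairs of libraries of the same group ran from 2.67 to 24.8, so none was a repeat of another. The series' design statement counts 5 TAC and 5 sham mice, and p-values measure the spread between these samples. The genes, lists, pairs and tests were chosen with earlier results of these data known. Named genes were all 10 enzymes, up to 3 called genes of smallest adjusted p in each other list, calls against the direction of a list, and the 6 nearest profiles; Pdk4 and the other fasting-type targets beyond Lpl and Vldlr, and Cpt1a, were named after their values were seen. Some genes that the rule would name are not reported here.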

Additional observations from a re-analysis of the deposited data

Results flagged for a closer look

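In each group of 5 libraries, the gap of the highest or lowest library to its neighbour was compared with the whole range, and gaps above 0.71 of the range were set out. Of 144 groups of 5 values (the 10 enzymes, the share, the pair ratios and the other named genes, in TAC and in sham), 17 met this. Chance gives about 1 in 20 for independent values, but these genes share the same libraries, and 6 of the 17 belong to genes named after their values were seen, so the number is a description and no test. In 10 the library was sham replicate 1 and in 7 TAC replicate 1.

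Among the beta-oxidation results only the ratio of Echs1 to Hadha was concerned. In TAC hearts, TAC replicate 1 stood at 0.275 and the others at 0.228 to 0.238, a gap of 0.798 of the range. In sham hearts, sham replicate 1 stood at 0.181 and the others at 0.224 to 0.227, a gap of 0.927 of the range.

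Sham replicate 1 was high in several fasting-type PPAR targets, but not in all of the list. Lpl was at 3025 CPM there, within the 2678 to 3271 CPM of the other sham libraries. Vldlr, at 204 CPM against 155 to 198 CPM, was only a little above them. Pdk4 was at 2391 CPM against 230 to 349 CPM in the other sham libraries (gap 0.945), Angptl4 at 41.8 against 3.54 to 6.4 (0.925) and Acot1 at 16.4 against 1.83 to 3.77 (0.866). Plin2 was at 101 CPM against 48.3 to 59.9 (gap 0.781), Fabp4 at 515 against 351 to 386 (0.787) and Cidea at 43 against 22.2 to 24.9 (0.867). Other genes of fatty acid use were high there too, Acot2 at 148 CPM against 44.6 to 51.5 (gap 0.934), Etfdh at 534 against 416 to 442 (0.778) and Fabp3 at 5344 against 4410 to 4555 (0.844).

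TAC replicate 1 was low in Etfa, with 148 CPM where TAC replicates 2 to 5 had 198 to 215 (gap 0.735). It was high in Col3a1, at 3054 against 1053 to 1254 (0.899), in Col1a2, at 1847 against 597 to 725 (0.898), in C1qa, at 89.3 against 58.8 to 63.2 (0.855), in C1qb, at 105 against 61.5 to 70.4 (0.794), and in Nppa, at 1239 against 507 to 675 (0.771).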

How the results depend on the processing

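All 10 beta-oxidation genes were called lower under 20 of 21 alternatives; relative to the cardiomyocyte markers 9 were, their median was -0.32 in place of -0.59, and their share of the marker counts was 0.778 of that in sham. Without any one library the median ran from -0.63 to -0.53 and the share ratio from 0.665 to 0.714. With library totals only, 1159 genes were lower and 3257 higher, against 2040 and 2251, and the median of all genes moved to 0.11. The replicate numbers of the titles did not pair the samples (correlations of same-numbered deviations 0.0127, -0.063, 0.0321, 0.332 and -0.13). With the replicate block all 10 genes were called lower and so were 1924 genes in all. For the count ratios that block cannot reach an adjusted p of 0.05, and the calls at 0.19 (Acadl/Acadvl), -0.18 (Acadm/Acadvl), -0.46 (Ech1/Echs1), 0.16 (Echs1/Hadha) and -0.16 (Acaa2/Hadhb) all ended (adjusted p = 0.143, exact sign-flip permutation). Without each library in turn the ratios ran from 0.13 to 0.22 for Acadl/Acadvl, -0.21 to -0.14 for Acadm/Acadvl, -0.49 to -0.39 for Ech1/Echs1, 0.10 to 0.18 for Echs1/Hadha, -0.20 to -0.14 for Acaa2/Hadhb and -0.03 to 0.02 for Hadha/Hadhb. Without both TAC 1 and sham 1 they were 0.14, -0.23, -0.36, 0.05, -0.14 and, for Hadha/Hadhb, 0.01, and no ratio was called with 4 libraries a group. With the length of the principal transcript the sham levels in CPM per kilobase were 425 (Acadm), 131 (Acads), 239 (Acadvl), 391 (Hadha), 310 (Hadhb), 99.4 (Hadh), 217 (Echs1) and 784 (Ech1). Of 1111 values of the 53 other named genes under alternatives, 1072 kept their side of the threshold and direction, 27 lost the call (11 relative to the cardiomyocyte markers) and 7 gained it. Angptl4, not called at -0.16, ran from -0.52 to 1.28 without each library in turn and was called higher without sham replicate 1 (adjusted p = 0.0134 by edgeR); it turned to 1.30 without that library and TAC replicate 1 (adjusted p = 0.0155), 0.32 with the replicate block, 0.44 with limma-voom and 0.12 relative to the cardiomyocyte markers, and Plin2 to 0.05 there; the cause was not tested. The beta-oxidation genes held at least 877 counts in every library. Low genes such as Angptl4, at 3.54 to 6.4 CPM in the sham libraries other than sham replicate 1, held far fewer. Counting error was not separated from the spread between libraries, and the 5 libraries a group limit the precision.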
